A study of Ericerus pela with 2 samples.

Results

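Structural cuticle proteins were followed across the last moults of males of the Chinese white wax scale insect, Ericerus pela, in 1 pupal and 1 prepupal RNA library. The measured items are unigenes, assembled transcript fragments that carry the name of their best protein database match in other insects. A unigene was taken when the text of its match named a cuticle or cuticular protein, a pupal or larval cuticle protein, Edg-78E, resilin, or the RR-1, RR-2 or RR-3 family. This rule found 20 unigenes of 120710, and 19 of them matched a cuticle protein. The other, Unigene1920_FOB, was caught only because its match, an ATP synthase coupling factor, came from a wasp listed as Nasonia sp. RR-2008; it had 0 reads in pupae and 1 in prepupae and is left out of what follows unless stated. No match text held the word resilin (0 unigenes).

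Both groups were wild-type males, pupae in one library and prepupae in the other, and both carry an age of 90 with no unit in the labels. The labels give the whole insect body as the tissue, whereas the design note speaks of the retina. Unigenes named for muscle proteins held 13246 reads in pupae and 7617 in prepupae, those for fat body 522 and 1212, and those for photoreceptors 2267 and 494, in the same order, so markers of several tissues were present in each library. With 1 library per stage, no difference below has a replicate check, and every interval covers counting error only. The libraries held 1840877 uniquely assigned reads in pupae and 2182108 in prepupae. In whole bodies, fewer epidermal cells and less RNA per cell cannot be told apart.

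The insect cuticle is a layered matrix of chitin fibres embedded in proteins, laid down by the epidermis at each moult and then hardened. Many of its proteins carry the Rebers-Riddiford consensus, a chitin-binding stretch. In insects studied in detail, the RR-1 type is found mostly in soft, flexible cuticle and the RR-2 type mostly in hard cuticle, while low complexity and glycine-rich proteins and other small families make up the rest. In males of scale insects the prepupa and the pupa each form a cuticle of their own before the winged adult emerges.

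Cuticle protein transcripts were more abundant in pupae than in prepupae. The 20 unigenes together held 1348 reads in pupae and 170 in prepupae, which is 732 and 77.9 RPM (reads scaled to the library total) in the same order. The ratio of pupae to prepupae was 9.40 (95% exact conditional binomial interval 8.01 to 11.1). One unigene, the RR-3 protein described below, held 50.4% of the pupal reads of the set, and without it the ratio was 5.78 (4.80 to 6.998). By number, 16 of the 19 cuticle protein unigenes had a higher RPM in pupae and 3 a lower one. Of the 16, 5 had no prepupal reads, so a higher value was the only outcome open to them. No like count was made over all unigenes, and calls with their background shares follow.

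A unigene was called higher or lower when it differed at least 2-fold in RPKM (reads scaled to both unigene length and library total) with 1 added to each value, provided its mean RPKM was at least 1. Of the 19 cuticle protein unigenes 17 passed this filter, and 12 of them were called higher in pupae, 1 lower and 4 neither. Over all 113976 filtered unigenes 23.0% were called higher and 39.4% lower. Among those with a database match the shares were 14.7% and 41.4%. With scaling by trimmed means (TMM) the background shares were 29.6% higher and 30.9% lower, while the cuticle proteins again had 12 higher and 1 lower calls. The median log2 ratio of the 17 was 2.19, against −0.49 over all filtered unigenes, so it lay 2.68 above that overall shift. It was also 2.19 with unigenes at 0 reads in one library set to their bound, which for all filtered unigenes gave 0. The bounds moved no member across the median, so the unchanged value adds no support. Of the 17, 4 had no prepupal reads and passed the filter through pupae alone. The median of the 13 with reads in both libraries was 1.17.

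Of the 12 calls, 4 had no prepupal reads and passed the filter through pupae alone, so a call as higher was the only one open to them. Among the 13 members that passed with reads in both libraries, 8 were higher, 1 lower and 4 neither, where 17.1% and 29.7% of all such unigenes were higher and lower. In 10 of the 12 higher calls the counting interval of the ratio lay above 1, and 3 of these 10 had no prepupal reads. So 10 of the 17 filtered members met both conditions, beside 9.01% of all filtered unigenes. An interval excludes 1 more easily with more reads. At least 20 reads were held by 11 of the 17 members, but by only 42104 of the 113976 filtered unigenes, so these shares differ in depth. The remaining pair of higher calls rested on few reads. They were an RR-2 protein with 1 read in pupae and 0 in prepupae, and a larval cuticle protein with 13 reads in pupae and 7 in prepupae. Among unigenes with at least 20 reads over both libraries, 9 of 11 members were higher and 0 lower, beside 17.9% higher and 37.5% lower of all such unigenes. Of these 11 members 3 had no prepupal reads and reached 20 reads through pupae alone, so this count adds no support of its own.

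**Figure D1:**
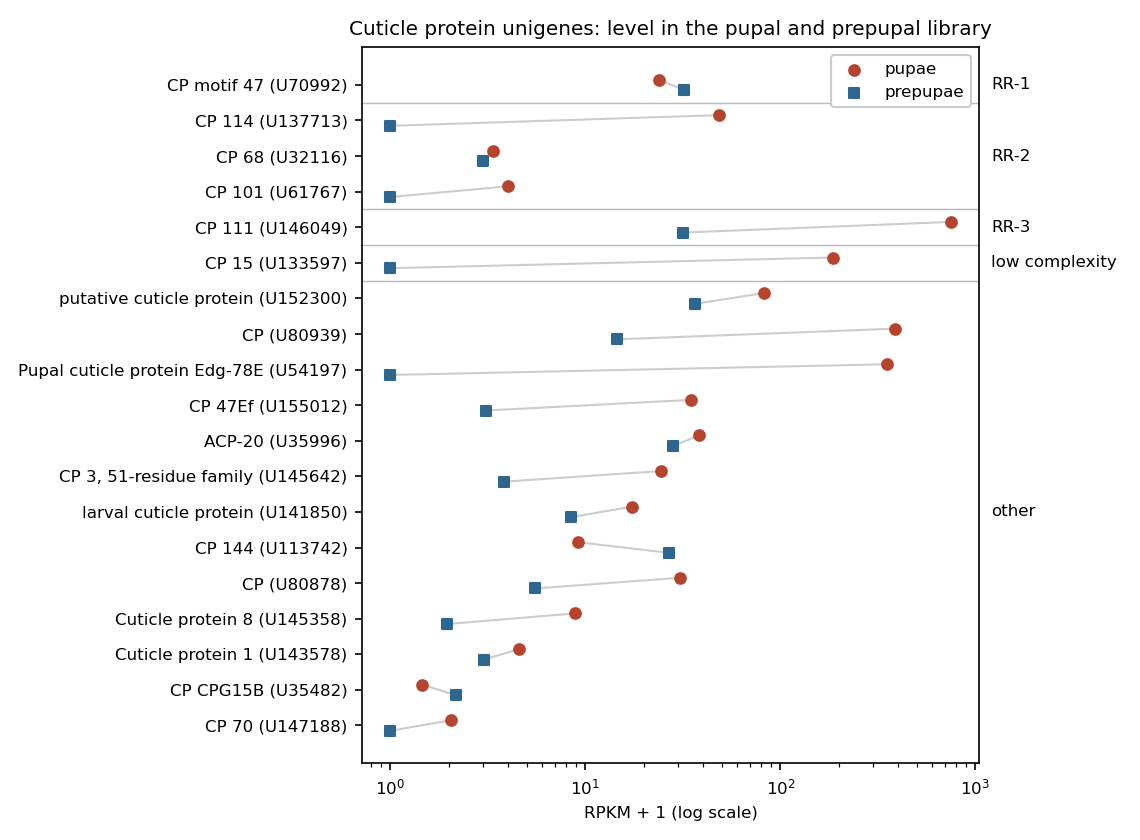
Level of each of the 19 cuticle protein unigenes, as RPKM plus 1 on a log axis, in pupae (circles) and prepupae (squares), grouped by the family named in the database match; names are shortened, with CP for cuticular protein and U for Unigene. Pupal levels reach 748 RPKM, while no prepupal level passes 35.7 RPKM, and 5 unigenes sit at 0 in prepupae.

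Levels per length differed widely between members in both libraries. In pupae the RR-3 protein led with 748 RPKM (exact Poisson interval 693 to 806). It was followed by Unigene80939_FOB, named cuticular protein, with 385 RPKM (325 to 454) and by Edg-78E with 351 RPKM (289 to 424). The intervals of these followers overlapped. The low complexity protein came next with 186 RPKM (155 to 222), apart from its neighbours on both sides, and a putative cuticle protein with 81.4 RPKM (66.3 to 98.8) followed. Below it, down to the larval cuticle protein, levels ran between 47.4 and 16.3 RPKM with intervals that overlapped from each neighbour to the next.

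In prepupae the 5 most abundant members lay between 25.9 and 35.7 RPKM, with intervals that all overlapped. They were the putative cuticle protein, RR-1 motif 47, the RR-3 protein, ACP-20 and cuticular protein 144. The 4 unigenes over 100 RPKM in pupae held 84.0% of the summed pupal RPKM of the cuticle proteins, and 23.6% of the summed prepupal RPKM. They were picked by their pupal level, which favours a larger share in pupae, so these shares are a description only. No member was over 100 RPKM in prepupae (0 of 19).

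A single unigene was named for the RR-1 family. Unigene70992_FOB, 191 bases long and matched to RR-1 motif 47 of the silkworm Bombyx mori, had 8 reads in pupae (22.8 RPKM) and 13 in prepupae (31.2 RPKM). The ratio was 0.729 with an interval of 0.262 to 1.90, so no difference was detectable at this depth. Its log2 ratio of −0.44 became 0.05 once ratios were centred on the median of all filtered unigenes. Its match was the weakest of the set, with an expectation value of 4.84e-06.

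The RR-2 family was named for 3 unigenes, which together held 37 reads in pupae and 2 in prepupae (ratio 21.9, 5.66 to 188). Nearly all of these reads came from Unigene137713_FOB, 390 bases long and matched to cuticular protein 114, with 34 reads in pupae (47.4 RPKM, 91.79% of its length covered) and 0 in prepupae. A count of 0 in prepupae allows up to 3.53 RPKM for this length. Against that floor the unigene was 13.4-fold higher in pupae, and the counting interval of the ratio began at 10.3. The others stayed at the limit of detection in both libraries. Cuticular protein 68 (Unigene32116_FOB) had 2 reads in pupae and 2 in prepupae, and cuticular protein 101 (Unigene61767_FOB) had 1 in pupae and 0 in prepupae. Both were matched to the mosquito Anopheles gambiae.

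The RR-3 family name covers a small number of proteins with a less typical consensus. Its only unigene, Unigene146049_FOB (494 bases, matched to cuticular protein 111), had 680 reads in pupae and 33 in prepupae, or 748 and 30.6 RPKM in the same order. It ranked 305 by RPKM among the 94524 unigenes with pupal reads, and reads covered 99.39% of its length there. In prepupae 90.28% of its length was covered, so the prepupal reads were also spread along the whole unigene. The ratio was 24.4 (17.2 to 35.8).

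The low complexity family was likewise named for a single unigene. Unigene133597_FOB, 356 bases long and matched to cuticular protein 15 through the pea aphid Acyrthosiphon pisum, had 122 reads in pupae (186 RPKM) and 0 in prepupae. The pupal reads covered 99.72% of its length. The prepupal count allows up to 3.86 RPKM. Against that floor the unigene was 48.2-fold higher in pupae, and the counting interval of the ratio began at 38.6.

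**Figure D2:**
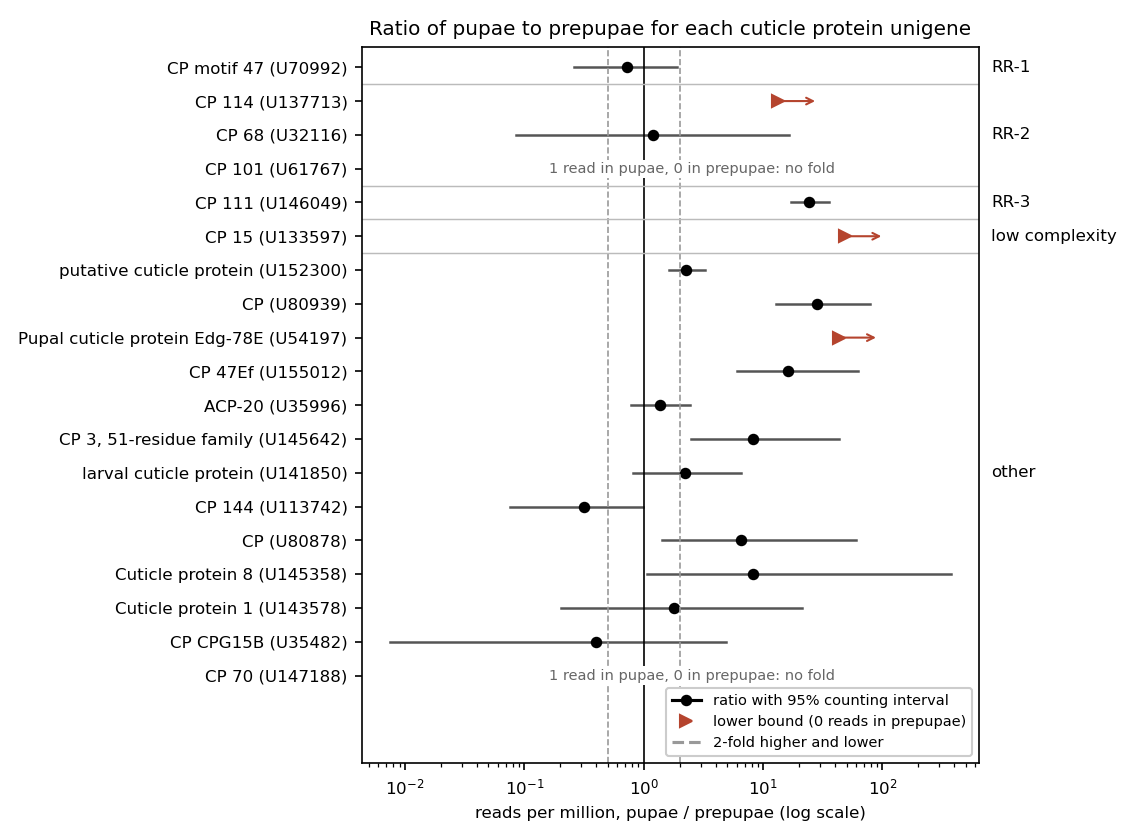
Ratio of RPM in pupae to prepupae for each cuticle protein unigene, on a log axis, with 95% counting intervals. Triangles with arrows are bounds for unigenes with 0 prepupal reads, from a floor of 3 counts with the pupal count taken as exact. Dashed lines mark 2-fold. Bounds and ratios above 10 appear in RR-2, RR-3, low complexity and other members. RR-1 motif 47, ACP-20 and the larval cuticle protein have intervals that include 1. So do several members with few reads, among them cuticular protein 68 of the RR-2 family.

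The 13 remaining unigenes had matches without one of these family names. They held 501 reads in pupae and 121 in prepupae (ratio 4.91, 4.02 to 6.04). Of the 11 that passed the filter 8 were higher, 1 lower and 2 neither, beside 23.0% higher and 39.4% lower of all filtered unigenes. Among those 8, Edg-78E had 0 prepupal reads, so a call as higher was the only one open to it.

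Edg-78E is a pupal cuticle protein known from Drosophila, where its gene responds to the moulting hormone ecdysone. Unigene54197_FOB, a fragment of 170 bases matched to Edg-78E of the ant Camponotus floridanus, had 110 reads in pupae (351 RPKM, 97.65% covered) and 0 in prepupae. A count of 0 allows up to 8.09 prepupal RPKM on so short a fragment. Against that floor the unigene was 43.5-fold higher in pupae, and the counting interval of the ratio began at 34.8. A larval cuticle protein of the pea aphid was the match of Unigene141850_FOB, which had 13 reads in pupae (16.3 RPKM) and 7 in prepupae (7.43 RPKM). Its log2 ratio of 1.04 lay just inside the 2-fold rule, its interval of 0.816 to 6.52 included 1, and with a pseudocount of 5 the log2 ratio was 0.78 and no longer a call.

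ACP-20 is an adult-specific cuticular protein first known from the mealworm. Its unigene, Unigene35996_FOB (423 bases), had 29 reads in pupae and 25 in prepupae, or 37.2 and 27.1 RPKM in the same order. The ratio was 1.37 with an interval of 0.777 to 2.45. It was therefore the second unigene with at least 20 reads, beside RR-1 motif 47, that was neither higher nor lower. Reads covered 79.20% of its length in pupae and 79.67% in prepupae.

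A protein named 47Ef in Drosophila was matched, through the pea aphid, by the longest of the higher unigenes, Unigene155012_FOB with 878 bases. It had 55 reads in pupae (34.0 RPKM) and 4 in prepupae (2.09 RPKM), a ratio of 16.3 (6.02 to 61.9). The share of its length covered was 82.35% in pupae and 15.38% in prepupae. Unigene145642_FOB was matched to a mosquito protein of a family named after a conserved stretch of residues, cuticular protein 3. It showed a like contrast, with 21 reads in pupae and 3 in prepupae (ratio 8.30, 2.48 to 43.5).

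A pair of unigenes of equal length, 203 bases each, was matched to different beetle proteins that carry only the name cuticular protein (Tribolium castaneum). Unigene80939_FOB had 144 reads in pupae (385 RPKM) and 6 in prepupae (13.5 RPKM), a ratio of 28.4 (12.8 to 78.8). Unigene80878_FOB had 11 reads in pupae (29.4 RPKM) and 2 in prepupae (4.51 RPKM), a ratio of 6.52 (1.42 to 60.5). Both were higher in pupae, and their intervals overlapped. The headers call the counted reads unique, and whether near-identical copies share or lose reads was not tested.

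The putative cuticle protein of the silkworm, Unigene152300_FOB (681 bases), changed little by comparison. It had 102 reads in pupae (81.4 RPKM) and 53 in prepupae (35.7 RPKM), a ratio of 2.28 (1.62 to 3.24). It was the most abundant member in prepupae, and its log2 ratio of 1.17 was just above the 2-fold rule.

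Cuticular protein 144 went the other way. Unigene113742_FOB (265 bases, matched to Tribolium castaneum) had 4 reads in pupae (8.20 RPKM) and 15 in prepupae (25.9 RPKM), which is 3.16-fold lower in pupae (1.01 to 13.1). Reads covered 39.25% of it in pupae and 86.04% in prepupae. It was the only member called lower, and the interval almost reached 1.

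The other members had fewer than 10 reads in all. Cuticle protein 8 (Unigene145358_FOB) had 7 reads in pupae and 1 in prepupae (ratio 8.30, 1.07 to 374). Cuticle protein 1 (Unigene143578_FOB), matched to a protein of a Blaberus cockroach, had 3 reads in pupae and 2 in prepupae. The protein CPG15B (Unigene35482_FOB), with 1177 bases the longest member, had 1 read in pupae and 3 in prepupae, and cuticular protein 70 (Unigene147188_FOB) had 1 in pupae and 0 in prepupae. The last pair did not pass the filter. All 8 members with fewer than 20 reads summed to 30 reads in pupae and 25 in prepupae (ratio 1.42, 0.809 to 2.52), while the other 11 held 1318 in pupae and 144 in prepupae. A member high in pupae reaches 20 reads more easily, so these sums describe where the reads lie and do not compare deep with shallow members.

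**Figure D3:**
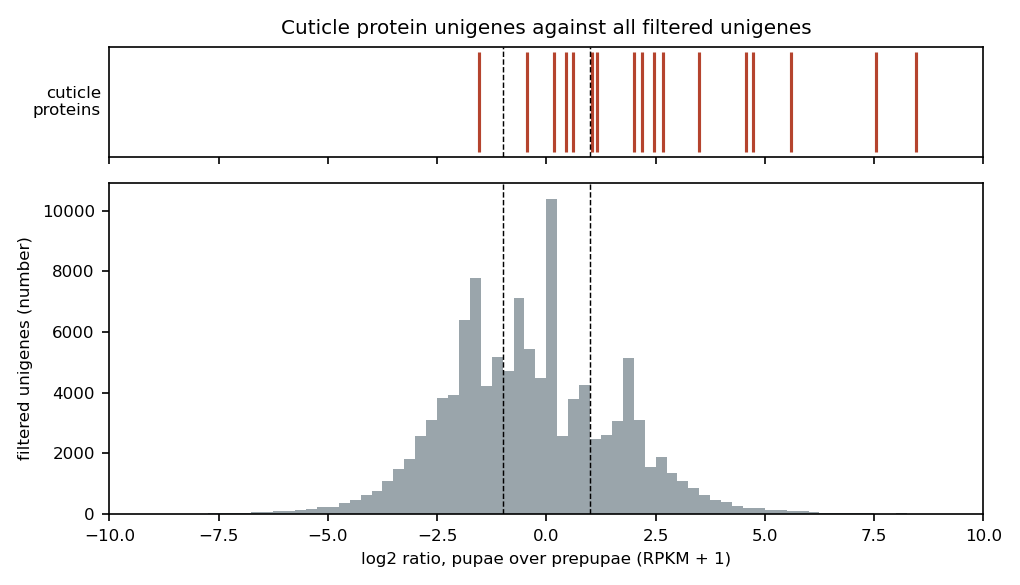
Log2 ratio of pupae to prepupae (RPKM plus 1) for the 17 filtered cuticle protein unigenes (top, 1 line each) and for all 113976 filtered unigenes (bottom, number per class of ratio); dashed lines mark 2-fold. Most cuticle protein lines lie right of the upper dashed line, where 23.0% of all filtered unigenes lie. Of these lines, 4 are unigenes without prepupal reads, which could lie nowhere else.

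Apart from the words of the rule, the members shared few annotations. The 19 unigenes matched 19 different proteins, and 7 of these were from the pea aphid. Only 6 had a Gene Ontology function, which was structural molecule activity for 5 of them and structural constituent of cuticle for cuticular protein 114. The median length was 432 bases, against 356 over all unigenes with a database match. In pupae 10 of the 19 were covered over at least 80% of their length, and in prepupae 2 were.

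Genes that build and harden the matrix around these proteins did not all follow them. The lists were keyword lists chosen with earlier results of these data known. Enzymes of cuticle tanning had 17 of 32 filtered unigenes higher (53.1%) and 10 lower (31.2%), beside 23.0% and 39.4% of all filtered unigenes. These enzymes held 5727 summed reads in pupae and 717 in prepupae (ratio 9.47, 8.76 to 10.2). Among them yellow-e (Unigene133165_FOB), of the Yellow family of pigmentation proteins, had 529 reads in pupae and 42 in prepupae (ratio 14.9, 10.9 to 21.0).

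Enzymes that make, cut or deacetylate chitin had 6 of 34 filtered unigenes higher (17.6%) and 5 lower (14.7%). Both shares were under those of all filtered unigenes, 23.0% higher and 39.4% lower. These enzymes held 955 reads in pupae and 811 in prepupae (ratio 1.40, 1.27 to 1.53). Their median log2 ratio was 0.03, which is 0.52 above the overall shift, and TMM scaling gave 11 higher and 3 lower. A chitinase 7 unigene (Unigene153100_FOB), of the enzymes that cut chitin, had 159 reads in pupae and 101 in prepupae (ratio 1.87, 1.45 to 2.42), short of the 2-fold rule. Chitin deacetylase 5 (Unigene86134_FOB), which removes acetyl groups from chitin, had 107 reads in pupae and 18 in prepupae and was higher (ratio 7.05, 4.25 to 12.3).

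Chitin-binding and cuticle assembly proteins had 3 of 8 filtered unigenes higher and 2 lower, beside 23.0% higher and 39.4% lower of all filtered unigenes. A list of 8 is too short to tell its shares from these. The median log2 ratio of the 8 was 0.03, which is 0.52 above the overall shift. Most of their pupal reads belonged to a member of the Osiris family (Unigene156895_FOB), which is expressed in cuticle-forming epidermis in Drosophila. It had 267 reads in pupae and 4 in prepupae (ratio 79.1, 30.5 to 293). Knickkopf (Unigene129560_FOB), which protects and orders chitin in Drosophila and Tribolium, had 18 reads in pupae and 26 in prepupae (ratio 0.821, 0.424 to 1.56), with no detectable difference. A peritrophin-A unigene (Unigene52103_FOB), with a chitin-binding domain, had 85 reads in pupae and 45 in prepupae (ratio 2.24, 1.54 to 3.29). Another peritrophin-A unigene (Unigene124585_FOB) had 24 reads in pupae and 29 in prepupae (ratio 0.981, 0.547 to 1.75), with no detectable difference.

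Apical matrix proteins were close to even between the stages on the deposited scale, and so lay above the overall shift. Their median log2 ratio was 0.21, which is 0.70 above that shift. None of 11 filtered unigenes was higher and 1 was lower (9.09%) on that scale, beside 23.0% higher and 39.4% lower of all filtered unigenes. TMM scaling gave 3 higher and 1 lower, and centring on the median of all filtered unigenes gave 4 higher and 0 lower. The largest, a fragment of dumpy (Unigene148278_FOB), a giant protein that ties epidermis to cuticle in Drosophila, had 103 reads in pupae and 99 in prepupae (ratio 1.23, 0.927 to 1.64).

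Collagens and basement membrane proteins, which line tissues throughout the body, were more often lower than higher in pupae. They had 5 of 81 filtered unigenes higher and 44 lower, or 54.3% lower beside 39.4% of all filtered unigenes, with 1823 reads in pupae and 4887 in prepupae (ratio 0.442, 0.419 to 0.467). Marker unigenes of haemocytes (35 reads in pupae, 436 in prepupae; 9 of 11 that passed the filter lower) and of fat body (522 in pupae, 1212 in prepupae; 11 of 16 lower) were also mostly lower in pupae, and their part in this result was not tested. Of the 17 fat body unigenes, 10 had reads in both libraries. With unigenes at 0 reads in one library set to their bound, the fat body median log2 ratio moved from −1.77 to −0.04. That of haemocytes stayed at −3.28. A laminin A chain unigene (Unigene148929_FOB), a main component of basement membranes, had 59 reads in pupae and 217 in prepupae (ratio 0.322, 0.237 to 0.432). The keywords also caught enzymes that modify collagen and related proteins; without those 5 unigenes, 5 of 76 were higher and 39 lower.

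**Figure D4:**
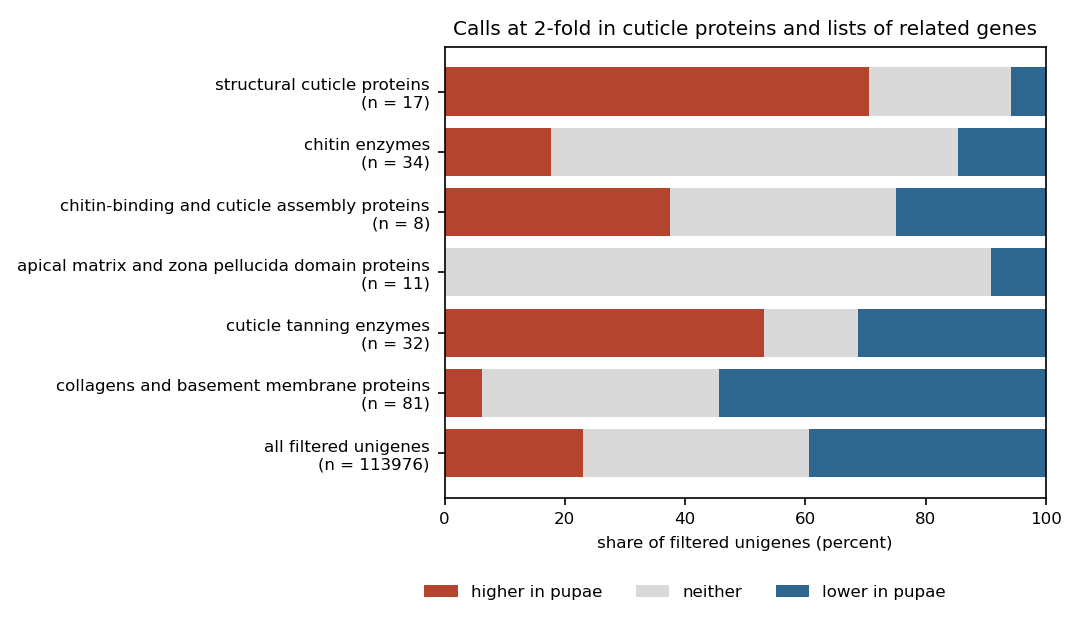
Share of filtered unigenes called higher, neither or lower at 2-fold in pupae, for the cuticle proteins (17 unigenes), the keyword lists of related genes and all filtered unigenes (bottom bar), with n beside each name. Higher calls make up 70.6% of the cuticle proteins and 53.1% of the tanning enzymes, against 23.0% of all filtered unigenes, while lower calls make up 54.3% of the collagens and basement membrane proteins. Filtered unigenes without prepupal reads could only be called higher, and 4 of the 12 higher cuticle proteins were such. With reads in both libraries, 8 of 13 cuticle proteins were higher, beside 17.1% of all such unigenes.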

How the data were processed

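Per the labels' protocols, RNA libraries of male whole bodies were made with standard Illumina procedures. Per the file headers, the deposited tables hold a unigene's raw count of unique reads, length, percent of length covered, RPKM, Gene Ontology terms and best protein match. How unigenes were assembled and reads assigned is not given in the sources used here. The authors' RPKM equalled the value recomputed from their counts within a relative tolerance of 1e-06.

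Both tables were merged by unigene, with 0 reads where a table had no line. Log2 ratios are pupae over prepupae on log2(RPKM + 1), for those unigenes whose mean RPKM was at least 1. They understate the change of low unigenes, and a call is a rule of size, not a test. Printed ratios are of RPM, with exact conditional binomial 95% intervals; against 0 reads a bound was computed from a floor of 3 counts per library (1.63 RPM in pupae, 1.37 in prepupae). Intervals and floors cover counting error only. The script was tested on simulated data. TMM factors came from edgeR 4.0.16; Python 3.11.15, pandas 2.3.3 and SciPy 1.17.1 did the rest.

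Members and lists were chosen with earlier results of these data known. Every member could be named; those with at least 20 reads in both libraries together were described with all their values, and the others more briefly. From each list of related genes, at most the 4 unigenes with the most reads could be named. Cuticular protein 144, cuticle protein 8 and Unigene80878_FOB were given full values after these had been seen. The marker lists for nervous system (819 reads in pupae, 290 in prepupae) and haemocytes (35 and 436, in the same order) complete the check of tissues. Alternatives tried were other pseudocounts, filters, scalings, a length minimum, a 4-fold rule and other ways to choose members.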

Additional observations from a re-analysis of the deposited data

How the results depend on the processing

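The count of members called higher in pupae was 12 of 17, beside 23.0% of all filtered unigenes, and ranged from 8 to 13. With unigenes of at least 300 bases it was 8 of 11, beside 17.6% of all such unigenes, and 8 is within 1.5 times the count. It was 13 of 20 with no filter, beside 22.9%, and 13 of 17 with centring, beside 30.0%. The median log2 ratio ranged from 1.11 (pseudocount of 5) to 3.50. With members chosen by the Gene Ontology term for structural constituent of cuticle instead of by name, 1 was higher and 0 lower, since only 2 unigenes carry that term. The count of lower members, 1 as reported, was 2 with no filter on low values, where the off-target ATP synthase match enters, and 0 at a minimum of 300 bases, at a 4-fold rule, or among unigenes with at least 20 reads, an alternative added after the data had been seen. The ratio of summed reads, 9.40, was 5.78 without the RR-3 unigene and 12.3 with TMM scaling. Of the log2 ratios of named members, 46 values stayed within the counting interval, 2 left it, both at a pseudocount of 5 (cuticular protein 15, 5.26, and 47Ef, 2.46), and 0 of those called reversed. Of 90 counts in the lists of related genes, 30 moved by over 1.5 times. No paired analysis was possible because each stage has 1 library. Depth limits the 8 members with fewer than 20 reads, whose ratios are poorly known.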

Other observations

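Unigenes with a Gene Ontology process that names the cuticle formed a different set from the structural proteins: 41 unigenes carried such a term and 0 of them were members. The set was looked up after the data had been seen and is given as values only. Of its 39 filtered unigenes, 2 were higher in pupae (5.13%, beside 23.0% of all filtered unigenes) and 16 lower (41.0%, beside 39.4%), with a median log2 ratio of −0.51 against −0.49 over all filtered unigenes. Among its unigenes with at least 50 reads, Sec23 and coatomer are parts of the vesicle coats that carry secreted proteins. One Sec23 unigene (Unigene115786_FOB) had 36 reads in pupae and 155 in prepupae, 3.63-fold lower in pupae (2.51 to 5.38), and another (Unigene57733_FOB) had 15 in pupae and 69 in prepupae, a ratio of 0.258 (0.137 to 0.455). The coatomer gamma-2 unigene (Unigene152825_FOB) had 25 reads in pupae and 163 in prepupae, 5.50-fold lower (3.60 to 8.75). A kinase named clk2 (Unigene79549_FOB) had 143 reads in pupae and 60 in prepupae, 2.83-fold higher (2.08 to 3.89).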
